A study of Mus musculus with 186 samples.

Results

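Cardiac muscle genes were followed in the lungs of mice with bleomycin-induced fibrosis. The set held 10 genes chosen by name, Myh6, Myl7, Tnni3, Tnnt2, Actc1, Nppa, Sln, Ryr2, Mybpc3 and Myl4, among the 22095 gene IDs of the count table, and all 10 passed the filter on low counts. Bulk total RNA depleted of ribosomal RNA was sequenced from the superior lung lobe of female C57BL/6 mice of about 12 weeks, in 93 libraries. Bleomycin, an antibiotic that breaks DNA strands and scars lung and skin, was injected under the skin of the back at 10 mg/kg/day on 5 days of each of 2 weeks, and PBS injections served as controls. SB525334, an inhibitor of the TGF-beta receptor kinase ALK5, was given by mouth at 30 mpk BID from day 12.

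The groups were bleomycin and PBS without oral dosing on day 7 (7 and 8 lungs) and on day 14 (8 and 8 lungs). On day 21 they were bleomycin with SB525334, bleomycin with oral vehicle and PBS with oral vehicle (9, 7 and 8 lungs), and on day 28 the same treatments (8, 7 and 7 lungs). On day 42 they were bleomycin with vehicle and PBS with vehicle (8 lungs each), kept to assess resolution. SB525334 was never given to PBS mice, and the labels do not say whether the replicates of a group came from separate animals, so p-values measure the spread between these samples.

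In rodents, heart-type muscle cells do not stop at the heart: they continue as a sleeve around the large pulmonary veins, which reach into the lung lobes. Atrial-type muscle uses its own myosin light chains, Myl7 and Myl4, whereas the ventricle of the adult uses the light chain Myl2. The sarcomere shortens when calcium, released through the ryanodine receptor Ryr2, binds the thin filament. In bulk RNA, fewer cells of a type and less RNA per cell cannot be told apart.

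The members cover the thick filament, the thin filament, calcium release and hormone secretion. Myh6 (ENSMUSG00000040752, chr14:54941921-54966927, minus strand, GRCm38) encodes the motor protein of the thick filament. Myl7 (chr11:5896637-5898782, minus strand) and Myl4 (chr11:104550663-104595753, plus strand) encode the atrial regulatory and essential myosin light chains. Mybpc3 (chr2:91118144-91136516, plus strand) encodes cardiac myosin-binding protein C. Actc1 (chr2:114047282-114053548, minus strand) is cardiac alpha-actin of the thin filament, and Tnni3 (chr7:4518305-4524229, minus strand) and Tnnt2 (chr1:135836354-135852260, plus strand) are cardiac troponins I and T, which make contraction depend on calcium. Ryr2 (chr13:11553102-12106945, minus strand) is the calcium release channel, and Sln (chr9:53850164-53854560, plus strand) is sarcolipin, a small inhibitor of the calcium pump. Nppa (chr4:148000722-148002079, plus strand) encodes atrial natriuretic peptide, a hormone of atrial muscle.

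The 250 bases upstream of the transcription start are shown for 4 members that fell on day 42 and held a match to a motif searched, as RefSeq gives them on GRCm38.p6. Tnnt2 also fell on day 42 and held a match, and its sequence is not shown. Of the members 9 had an entry, and both strands were searched for the CArG box (bound by serum response factor), the MEF2 box, the TEAD-type motif CATTCC and the GATA-type motif GATAAG. Capitals mark the matches, the sequences run 5′ to 3′ on the strand of the gene, and no match overlapped another.
Myl7, chr11:5898783-5899032, minus strand: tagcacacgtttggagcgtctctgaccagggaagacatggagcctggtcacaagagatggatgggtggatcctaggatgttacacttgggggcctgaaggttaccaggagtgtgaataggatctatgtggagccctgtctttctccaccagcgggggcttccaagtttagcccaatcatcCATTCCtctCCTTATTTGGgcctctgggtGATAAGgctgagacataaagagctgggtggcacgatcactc
Actc1, chr2:114052876-114053125, minus strand: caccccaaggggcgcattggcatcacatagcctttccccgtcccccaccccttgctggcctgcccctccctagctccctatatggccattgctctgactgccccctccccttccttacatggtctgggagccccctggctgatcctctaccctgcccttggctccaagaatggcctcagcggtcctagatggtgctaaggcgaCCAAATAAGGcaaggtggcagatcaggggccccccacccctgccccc
Mybpc3, chr2:91117894-91118143, plus strand: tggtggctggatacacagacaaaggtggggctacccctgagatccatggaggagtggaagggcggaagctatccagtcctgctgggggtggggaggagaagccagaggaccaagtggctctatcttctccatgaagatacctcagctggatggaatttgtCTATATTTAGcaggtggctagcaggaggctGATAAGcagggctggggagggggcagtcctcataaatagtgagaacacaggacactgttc
Myh6, chr14:54966608-54966857, minus strand: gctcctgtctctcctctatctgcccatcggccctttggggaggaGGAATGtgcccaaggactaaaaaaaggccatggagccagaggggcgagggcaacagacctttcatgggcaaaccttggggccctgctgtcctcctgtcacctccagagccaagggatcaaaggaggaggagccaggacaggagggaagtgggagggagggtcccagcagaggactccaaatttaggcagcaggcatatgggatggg
The CArG box lay 61 bases upstream of the start of Myl7 and 47 bases upstream of that of Actc1, and 1.47% of 32851 starts in the table held such a box within the same distance. The MEF2 box of Mybpc3 lay 90 bases upstream, and 0.508% of the starts held one. CATTCC stood in the windows of Myl7, Tnnt2 and, read on the opposite strand, Myh6, against 12.6% of all starts. GATAAG stood in those of Myl7 and Mybpc3, against 6.55% of all starts. A match is a description of letters, and no binding was measured.

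All libraries carried lung genes, with the surfactant gene Sftpc between 3180 and 18400 CPM (counts per M counts of the library). Total expected counts ran from 4.79 to 38.34 M per library with a median of 19.8 M. In 12 libraries the 80 ribosomal protein genes took over 3.01% of counts, which is 1.5 times the lung median of 2.01%, and all 12 came from day 28 and plate 1. They were 6 of 8 SB525334 lungs, 4 of 7 bleomycin lungs and 2 of 7 PBS lungs, and are called high-ribosomal libraries. Another 7 libraries were of unusual composition, by the summed level of fast skeletal muscle, skin or liver genes or by the share of their 10 most abundant genes. Of these, bleomycin replicate 2 of day 28 had 3350 CPM of fast skeletal muscle genes and bleomycin replicate 1 of day 42 had 21000 CPM of liver genes.

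The cardiac genes were present in every lung group. Across the 39 PBS lungs, level per kilobase of the principal transcript put the atrial light chain Myl7 at the top, at 71.9 CPM per kb in the median library, with a range of 39.5 to 192. Actc1 followed at 46.8, Myl4 at 40.8, Myh6 at 33.5, Tnnt2 at 31.8 and Tnni3 at 23.5 CPM per kb, and the ranges of neighbours in this order overlapped. Sln, Ryr2, Nppa and Mybpc3 lay lower, with medians of 4.9, 4.05, 2.0 and 1.51 CPM per kb. The order rests on the transcript taken: with all annotated exons as the length, Myl7 and Actc1 stayed on top, while Myl4 moved to rank 5 and Tnnt2 to rank 7.

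The defining light chain of the ventricle was close to absent. Myl2 had a median of 0.0439 CPM and was listed at 0 in 38 of 93 lungs, and Irx4, a transcription factor of the ventricle, was at 0 in 56 of 93. The beta myosin heavy chain Myh7 was present, between 6.25 and 39.7 CPM. The other ventricle-enriched genes looked at were also present in every lung. They were Myl3, with a median of 1.31 CPM (0.29 to 141 CPM), and Hey2, with a median of 4.87 CPM (1.84 to 7.86 CPM). Some other heart markers were also at the detection limit: Nkx2-5 was at 0 in 31, Bmp10 in 60 and Hand1 in 88 of the 93 lungs. Others were not: Tbx20 had a median of 3.3 CPM with 1 lung at 0. Tbx5, Smyd1 and Corin had medians of 27.6, 3.11 and 2.87 CPM with no lung at 0. Myh6 and Myh7 are close in sequence, as are Actc1 and the other actins, so reads that fit both could be split between them by the counting. In the 93 skin libraries of the series, set beside the lungs, the genes were far lower: Myh6 had a median of 160 CPM in lung and 0.138 CPM in skin, and Myl7 of 36.5 CPM in lung and 0.0559 CPM in skin. Tnnt2 differed less, with medians of 35.2 CPM in lung and 12.1 CPM in skin, and none of these levels was tested.

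**Figure D1:**
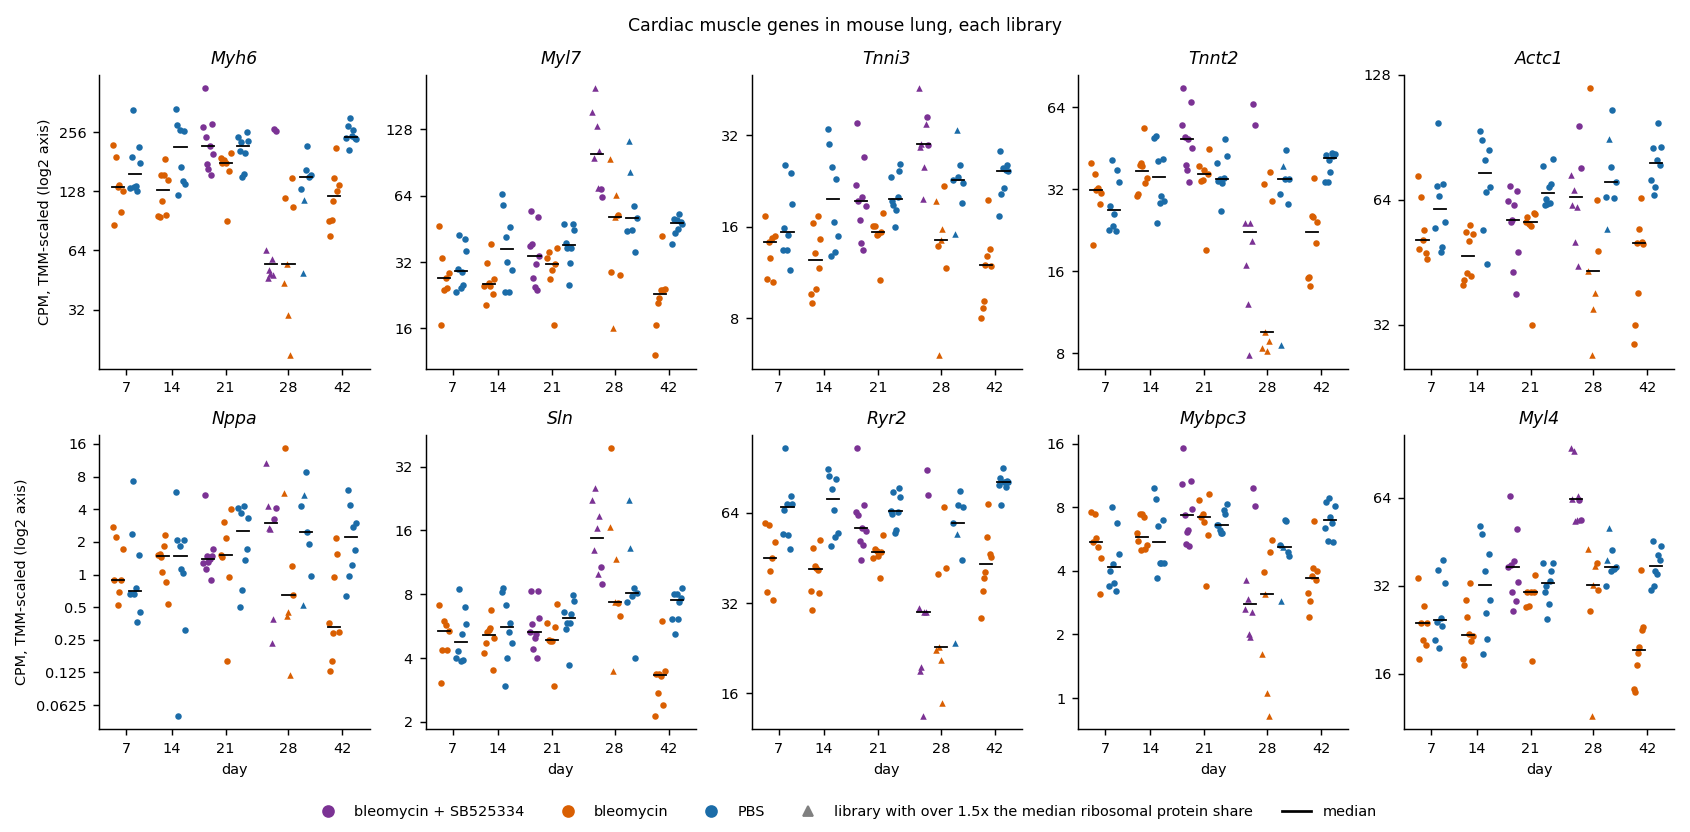
Level of each cardiac muscle gene in each lung library as TMM-scaled CPM on a log2 axis, by day, with SB525334 in purple, bleomycin in orange and PBS in blue, medians as bars and high-ribosomal libraries as triangles. On day 42, in every panel except Nppa, the bleomycin points lie below all PBS points with at most replicate 6 apart, with Myh6 at 76.2 to 213 CPM in bleomycin lungs and 207 to 303 CPM in PBS lungs. A PBS lung of day 14 with 0 counts of Nppa is drawn at 0.05 CPM.

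The bleomycin comparisons followed the response to injury from the injection period to well after its end. On day 7 no member passed the test, while 31.7% of the 15647 genes tested did and 17.8% passed as lower. A gene is said to rise or fall where the Benjamini-Hochberg adjusted p of the quasi-likelihood test of edgeR over all genes was below 0.05, and ± gives a standard error on the log2 scale. At an unadjusted p under 0.05 edgeR had 1 member, Ryr2, and DESeq2 and limma likewise called 0 after adjustment. Of the 10 members 8 had a negative log2 fold change, and the median was -0.20, beside -0.02 for all genes. Ryr2 came nearest to the threshold, at 32.7, 45.3 and 59.2 CPM in bleomycin lungs and 48.3, 66.9 and 105 CPM in PBS lungs (lowest, median and highest). All 7 bleomycin lungs lay below the PBS mean of Ryr2 and 4 of them below the lowest PBS lung, at -0.53 ± 0.23 (adjusted p = 0.0657). With the high-ribosomal libraries, none of them from day 7, left out of the fit, the Ryr2 value was the same at -0.53 with an adjusted p of 0.00279 by edgeR. In that fit 7798 genes were called on day 7, against 4956 in the main fit. Ryr2 also passed without bleomycin replicate 1 or 3 or PBS replicate 6. Over all single libraries left out, its value ran from -0.62 to -0.38 and its adjusted p from 0.0382 to 0.22 by edgeR. On this day 2 bleomycin and 2 PBS lungs were of unusual composition. Without the unusual libraries 0 members had an unadjusted p under 0.05 in edgeR.

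On day 14, at the end of the injections, 6 of the 10 members fell, against 25.4% of all genes tested as lower and 46.4% in either direction. They were Myh6, Myl7, Myl4, Tnni3, Actc1 and Ryr2, so that the thick filament, the thin filament and calcium release were each represented. In each of these genes all 8 bleomycin lungs lay below the mean of the PBS lungs. The median of the 10 members was -0.54, beside -0.02 for all genes.

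Ryr2 showed the largest of these falls, with 30.3, 41.6 and 51.9 CPM in bleomycin lungs and 49.6, 70.9 and 89.7 CPM in PBS lungs (lowest, median and highest). All but 1 of the 8 bleomycin lungs lay below the lowest PBS lung, and the log2 fold change was -0.78 ± 0.22 (adjusted p = 0.00234). Tnni3 had 9.0, 12.4 and 17.3 CPM in bleomycin lungs and 12.8, 19.8 and 33.5 CPM in PBS lungs, a fall of -0.73 ± 0.19 (adjusted p = 0.00106). Here 4 bleomycin lungs lay below the lowest PBS lung and the rest overlapped the low PBS lungs.

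Actc1 fell by 0.62 on the log2 scale (SE 0.17, adjusted p = 0.00213), with 39.8 to 55.5 CPM in bleomycin lungs and 44.8 to 93.8 CPM in PBS lungs. Myl4 fell by 0.54 (SE 0.19, adjusted p = 0.013), with 17.1 to 32.8 CPM in bleomycin lungs and 18.7 to 51.1 CPM in PBS lungs. The PBS range was the wider in both genes. Myh6 (-0.73 ± 0.30, adjusted p = 0.0376) and Myl7 (-0.55 ± 0.23, adjusted p = 0.0469) passed narrowly. Tnnt2, at 0.03 ± 0.25, and Mybpc3, at -0.01 ± 0.26, had means of 37.7 and 6.12 CPM in bleomycin lungs, against 36.6 and 6.12 CPM in PBS lungs. Sln was at -0.20 ± 0.26 and Nppa at -0.22 ± 0.63. In 1 PBS lung Nppa had 0 counts, which allows a level of up to 0.187 CPM (3 counts), by counting error alone.

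The day 14 count rested in part on PBS replicate 1, without which 3 members were called, with Myl4 among those lost. Myh6 lost its call without any one of replicates 1, 2, 4 and 7 of either group, and Myl7 without any one of these, or without bleomycin replicate 5 or 8, or with the replicate block (adjusted p = 0.0554 by edgeR). Both also missed the threshold with no filter on low counts (adjusted p = 0.0538 for Myh6 and 0.068 for Myl7 by edgeR) and by limma (adjusted p = 0.0598 each), which left 4 members, while DESeq2 called 6. Plate 1 held 1 lung of each group. Within plate 2, with 7 lungs of each group, the differences in mean log2 CPM were -0.67 for Ryr2, -0.52 for Tnni3, -0.50 for Actc1 and for Myh6, -0.36 for Myl7 and -0.34 for Myl4. Genes of other tissues moved with these groups, with a fast skeletal muscle sum of 4.29 to 18.2 CPM in bleomycin lungs and 6.61 to 137 CPM in PBS lungs, and 9 of 9 markers of epidermis and hair were lower in bleomycin lungs. PBS replicate 6 was the library of unusual composition here, and without the unusual libraries 6 members were called. Of the endothelial markers 7 of 8 fell and of the macrophage markers 9 of 9 rose. The part of these tissues and cell types in the result was not tested.

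On day 21, when both groups received oral vehicle, no member passed the test, against 19.4% of genes tested as lower and 35.3% in either direction. Tnni3 and Ryr2 were the 2 members with an unadjusted p under 0.05 in edgeR, and DESeq2 and limma called 0 after adjustment. The direction was negative in 9 of 10 members, with a median of -0.32 beside -0.03 for all genes. For Ryr2 and Actc1 the libraries of the groups did not overlap, as was so, in the lower direction, for 9.34% of all genes. Ryr2 had 38.8, 47.5 and 53.8 CPM in bleomycin lungs and 54.7, 64.7 and 77.4 CPM in PBS lungs, at -0.49 ± 0.23 (adjusted p = 0.0838). Actc1 had 31.9, 56.4 and 59.3 CPM in bleomycin lungs and 62.1, 66.4 and 80.1 CPM in PBS lungs, at -0.35 ± 0.18 (adjusted p = 0.12).

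The day 21 calls changed with the libraries in the fit. In a fit of the 2 groups alone 8695 genes were called, against 5521 in the main fit. Of the members 3 of 10 passed there, namely Ryr2 (-0.47, adjusted p = 0.000109 by edgeR), Tnni3 (-0.43, adjusted p = 0.00411 by edgeR) and Actc1 (-0.33, adjusted p = 0.0225 by edgeR). In the main fit Tnni3 was at -0.45 ± 0.20 (adjusted p = 0.0626). Leaving out PBS replicate 4 alone made it the 1 member called, at an adjusted p of 0.047 by edgeR.

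On day 28 the same 6-of-10 count came from another composition: Myh6, Mybpc3, Ryr2, Tnnt2, Tnni3 and Actc1 fell, against 18.4% of all genes as lower and 38% in either direction. The members' median was -0.58, beside 0.01 for all genes. Myh6 had 18.8, 54.5 and 150 CPM in bleomycin lungs and 49.1, 151 and 217 CPM in PBS lungs, a change of -0.94 ± 0.32 (adjusted p = 0.0168). Of the 7 bleomycin lungs 3 lay below the lowest PBS lung. Ryr2 had 14.9, 22.8 and 66.7 CPM in bleomycin lungs and 23.5, 59.2 and 75.7 CPM in PBS lungs, a change of -0.80 ± 0.24 (adjusted p = 0.00649).

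Tnnt2 changed by -0.75 ± 0.27 (adjusted p = 0.0247), Mybpc3 by -0.79 ± 0.29 (adjusted p = 0.0257), Tnni3 by -0.67 ± 0.21 (adjusted p = 0.0086) and Actc1 by -0.49 ± 0.19 (adjusted p = 0.0309). The atrial light chains Myl7 and Myl4, which had fallen on day 14, stood at -0.34 ± 0.25 and -0.33 ± 0.20 and did not pass. Sln was the 1 member with a positive value, at 0.41 ± 0.28, and its highest bleomycin library, with 39.1 CPM, was replicate 2, the library with skeletal muscle genes.

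The day 28 values moved with the ribosomal protein share, which was 2.16% to 10.3% in bleomycin lungs and 2.13% to 13% in PBS lungs. Markers of other cell types moved as well, with 5 of 8 endothelial markers (median -0.61) and 5 of 9 smooth muscle genes (median -0.48) lower and 8 of 9 macrophage markers higher in bleomycin lungs, and their part in the result was not tested. Among the high-ribosomal libraries Myh6 was at 18.8 to 54.5 CPM in 4 bleomycin lungs and at 49.1 and 116 CPM in 2 PBS lungs. Among the others it was at 106 to 150 CPM in 3 bleomycin lungs and at 132 to 217 CPM in 5 PBS lungs. Without the high-ribosomal libraries 1 member was called, Sln as higher (1.30, adjusted p = 0.00613 by edgeR), and none of the 6 falls remained. Myh6 was then at -0.34 (adjusted p = 0.605), Tnni3 at -0.50 (adjusted p = 0.319), Ryr2 at -0.31 (adjusted p = 0.49) and Actc1 at 0.03 (adjusted p = 0.982), all by edgeR. Without the high-ribosomal and unusual libraries, and in a fit of the day 28 pair of groups alone, 0 members were called. At an unadjusted p under 0.05 edgeR had 0 and 4 members in these fits, and on all libraries DESeq2 and limma called 6 each. With the ribosomal share as a term 4 were called, with Myh6 at -0.64 (adjusted p = 0.0308 by edgeR). Leaving out bleomycin replicate 1, 4 or 5 or PBS replicate 5 alone brought the count to 3 for replicate 1 and to 2 for each of the others. Single calls were also lost without bleomycin replicate 3 (Tnnt2 and Actc1), PBS replicate 3 (Actc1) and PBS replicate 4 (Mybpc3), and Sln passed as higher without PBS replicate 2 (0.69, adjusted p = 0.0358 by edgeR). In plate 1 the mean log2 difference of Myh6 was -1.48 with 5 lungs of each group, and in plate 2 it was -0.28 with 2 of each.

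Myl7 and Myh6 parted in the same libraries. Their ratio is given here as 1 pair, and the part of transcript length was not tested. Tnnt2, with 1097 bases in the principal transcript and 7752 in all annotated exons, was low in those libraries as Myh6 was. Tnnt2 had a median of 8.62 CPM in the high-ribosomal bleomycin lungs and 33.5 CPM in the other bleomycin lungs of day 28. Between the same sets Ryr2 had medians of 21.5 and 42.0 CPM, Mybpc3 of 1.33 and 4.9 CPM and Actc1 of 36.5 and 63.8 CPM. Nppa was also lower in the high-ribosomal set. Medians were higher there for Myl7 (57.9 and 28.9 CPM), Sln (9.57 and 7.28 CPM), Myl4 (34.9 and 30.9 CPM) and Tnni3 (15.1 and 13.8 CPM). The ratio of Myl7, with a principal transcript of 590 bases, to Myh6, with 6113 bases, in CPM had a median of 2.13 and a range of 0.295 to 3.87 in the 12 high-ribosomal libraries. In the other 81 libraries the median was 0.191 and the range 0.127 to 0.347. What sets the ribosomal share in these libraries was not tested.

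**Figure D2:**
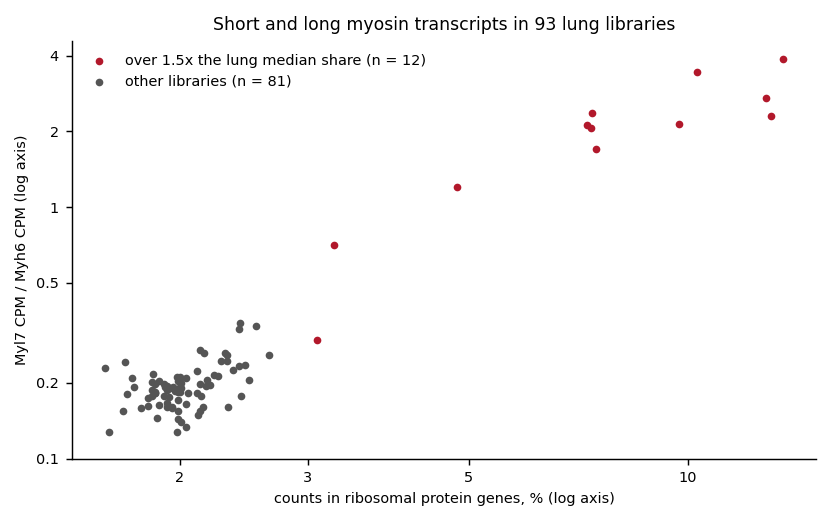
Ratio of Myl7 to Myh6 CPM against the share of counts in ribosomal protein genes, both on log axes, with 1 point per lung library. The 12 high-ribosomal libraries (red) reach ratios of 0.295 to 3.87, and the other 81 (grey) lie between 0.127 and 0.347.

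**Figure D3:**
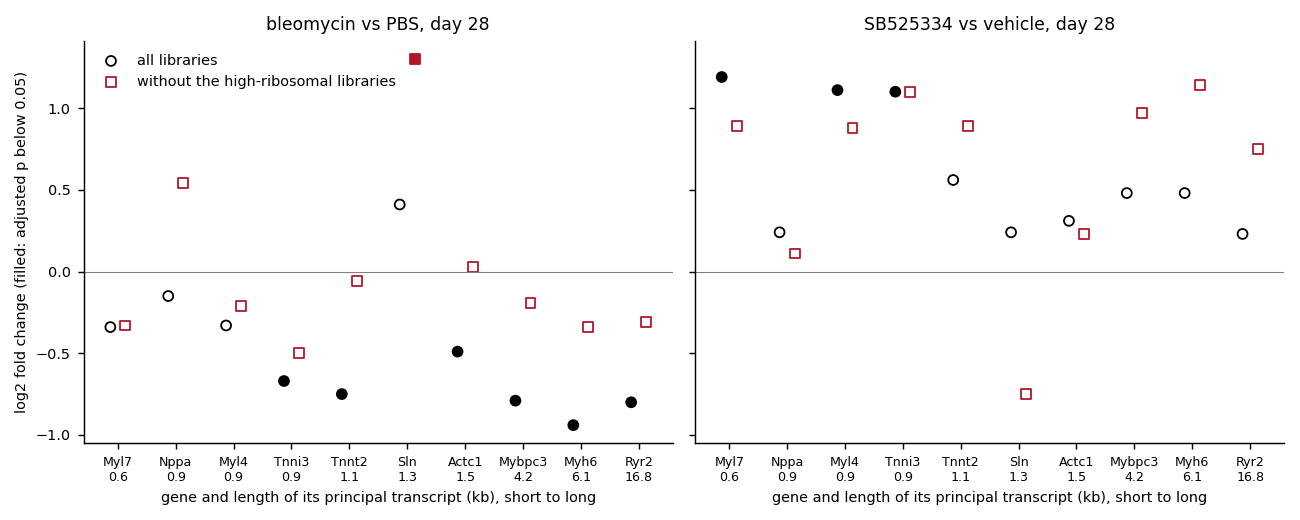
Log2 fold changes on day 28 for bleomycin against PBS (left) and SB525334 against vehicle (right), with genes ordered by the length of the principal transcript; black circles are from all libraries and red squares from a fit without the high-ribosomal libraries, filled where the adjusted p is below 0.05. Without those libraries none of the 6 bleomycin falls and none of the 3 SB525334 rises passed, and Sln passed as higher on the left.

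On day 42, the latest day, 9 of 10 members fell in bleomycin lungs, against 6.79% of all genes tested as lower and 19.4% in either direction. The log2 fold changes of the 9 ranged from -1.09 for Sln to -0.78 for Actc1, and the median of the 10 was -0.93, beside 0.02 for all genes. For every member all 8 bleomycin lungs lay below the PBS mean. This day held no high-ribosomal library, with ribosomal shares of 1.58% to 2.04% in bleomycin lungs and 1.81% to 2.04% in PBS lungs.

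In the thick filament, Myh6 had 76.2, 122 and 213 CPM in bleomycin lungs and 207, 242 and 303 CPM in PBS lungs. Of the bleomycin lungs only replicate 6 reached the PBS range, and the change was -1.03 ± 0.30 (adjusted p = 0.0082). Myl7 had 12.1, 22.9 and 42.2 CPM in bleomycin lungs and 38.8, 48.0 and 52.9 CPM in PBS lungs, a change of -1.01 ± 0.24 (adjusted p = 0.000801). Myl4 had 13.9, 19.3 and 36.2 CPM in bleomycin lungs and 31.0, 37.5 and 45.6 CPM in PBS lungs, a change of -0.88 ± 0.19 (adjusted p = 0.000239). In both light chains replicate 6 alone reached into the PBS range. Mybpc3 had 2.42, 3.69 and 6.85 CPM in bleomycin lungs and 5.47, 6.95 and 8.89 CPM in PBS lungs, a change of -0.89 ± 0.26 (adjusted p = 0.00875).

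In the thin filament, Actc1 had 28.7, 50.2 and 64.7 CPM in bleomycin lungs and 65.5, 78.5 and 97.9 CPM in PBS lungs. It was the 1 member whose groups did not overlap, as was so in the lower direction for 2.35% of all genes, and it changed by -0.78 ± 0.17 (adjusted p = 0.000414). Tnni3 had 8.04, 11.9 and 19.6 CPM in bleomycin lungs and 17.4, 24.5 and 28.4 CPM in PBS lungs, a change of -0.97 ± 0.19 (adjusted p = 6.32e-05). Tnnt2 had 14.1, 22.3 and 35.3 CPM in bleomycin lungs and 34.0, 41.8 and 43.3 CPM in PBS lungs, a change of -0.87 ± 0.25 (adjusted p = 0.00743). In both troponins replicate 6 alone reached into the PBS range.

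In calcium handling, Ryr2 had 28.5, 43.1 and 68.3 CPM in bleomycin lungs and 67.7, 81.2 and 90.0 CPM in PBS lungs, a change of -0.86 ± 0.22 (adjusted p = 0.00208). Sln had 2.14, 3.33 and 6.01 CPM in bleomycin lungs and 5.2, 7.48 and 8.56 CPM in PBS lungs, a change of -1.09 ± 0.27 (adjusted p = 0.00159). The hormone gene Nppa varied most, with 0.13, 0.325 and 2.18 CPM in bleomycin lungs and 0.629, 2.22 and 5.98 CPM in PBS lungs. It had the most negative value of the members, -1.73 ± 0.67, and did not pass (adjusted p = 0.0583), while 5 of 8 bleomycin lungs lay below the lowest PBS lung.

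The day 42 result was present in both plates, with mean log2 differences of -1.31 and -0.66 for Myh6, -1.28 and -0.77 for Myl7 and -1.14 and -1.06 for Sln in plates 1 and 2 (5 and 3 lungs of each group). Nppa passed where the bleomycin and PBS groups of that day were fitted alone (-2.05, adjusted p = 0.0203 by edgeR). It also passed without bleomycin replicate 6 or 7 or PBS replicate 1, 3 or 5, with adjusted p-values of 0.0117 to 0.122 by edgeR over all single libraries left out. DESeq2 and limma called all 10 members on this day. The liver genes of bleomycin replicate 1 rose as a list, and without that and the other unusual libraries the count was again 9.

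**Figure D4:**
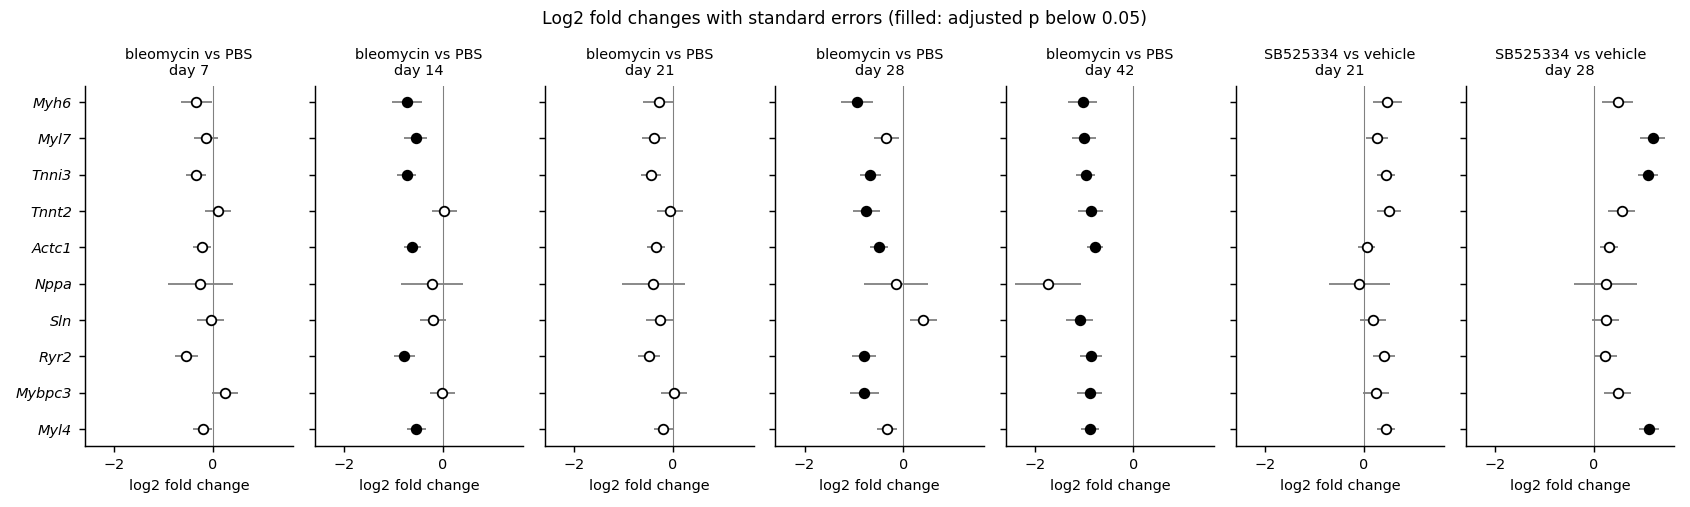
Log2 fold change of each cardiac muscle gene (points) with its standard error (bars) in the 7 comparisons, filled where the adjusted p over all genes is below 0.05. On day 42 all 10 points lie left of 0 and 9 are filled; on days 7 and 21 none is filled.

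The day 42 fall extended to other genes of striated heart muscle. Of 16 tested genes of other sarcomere proteins 9 fell and none rose, with a median of -0.84. They included troponin C (Tnnc1, -0.98 ± 0.21, adjusted p = 0.00021), the atrial myosin-binding protein Mybphl (-0.99 ± 0.21, adjusted p = 0.000262), the Z-disc protein Myoz2 (-1.02 ± 0.23, adjusted p = 0.000558) and nebulette (Nebl, -0.45 ± 0.09, adjusted p = 0.000109). Nebl was far more abundant, with a median of 399 CPM over the 93 lungs, beside 5.08 for Tnnc1, 3.72 for Mybphl and 4.98 for Myoz2. Which cells of the lung its counts came from was not tested. Of 8 genes of heart energy metabolism 4 fell and none rose, namely the mitochondrial creatine kinase Ckmt2 (-1.18 ± 0.25, adjusted p = 0.000209), the muscle cytochrome oxidase subunits Cox8b (-1.86 ± 0.40, adjusted p = 0.000276) and Cox7a1 (-1.01 ± 0.30, adjusted p = 0.00991), and myoglobin (Mb, -0.94 ± 0.35, adjusted p = 0.047).

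Other lists showed less. Of 17 genes of calcium handling and excitation 4 fell and 1 rose, with a median of -0.08. Phospholamban (Pln, -0.81 ± 0.19, adjusted p = 0.00104), the atrial gap junction gene Gja5 (-0.58 ± 0.11, adjusted p = 6.53e-05) and the potassium channel gene Kcnj3 (-1.12 ± 0.34, adjusted p = 0.0108) were among those that fell. Of 8 transcription factor genes only Tbx20 fell (-0.92 ± 0.29, adjusted p = 0.016). Of 9 smooth muscle genes 2 fell, Cnn1 (-0.59 ± 0.15, adjusted p = 0.00282) and Mylk (-0.36 ± 0.12, adjusted p = 0.023), and the median was -0.19. Several of these genes are also active in endothelial or smooth muscle cells of the lung, and of 8 endothelial markers 4 fell on day 42, while 9 of 9 macrophage markers rose. The summed level of the 12 fast skeletal muscle genes was 5.43 to 7.63 CPM in bleomycin lungs and 5.15 to 11.3 CPM in PBS lungs.

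**Figure D5:**
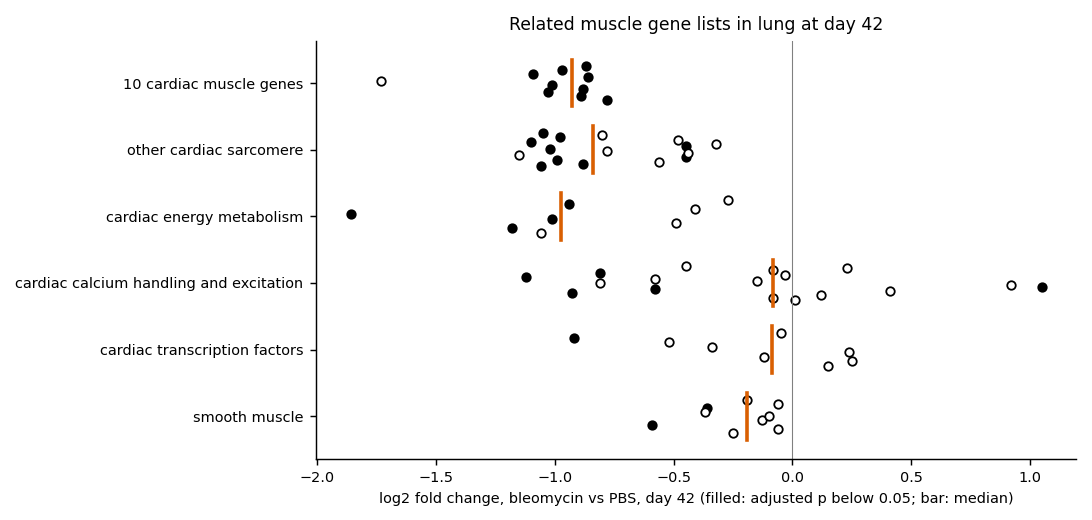
Log2 fold changes between bleomycin and PBS lungs on day 42 for the 10 cardiac muscle genes and 5 related lists, with 1 point per gene, filled where the adjusted p is below 0.05, and the list median as an orange bar. The medians of the other sarcomere genes (-0.84) and the energy metabolism genes lie near that of the 10 genes (-0.93), and that of smooth muscle is -0.19.

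On day 14, of the same lists, 7 of 16 sarcomere genes fell and none rose, with Myh7 far ahead (-1.76, adjusted p = 1.74e-16), then Nebl (-0.52, adjusted p = 1.49e-06), Csrp3 (-1.14, adjusted p = 0.000188) and Smpx (-0.91, adjusted p = 0.0189). Myh7 also fell on day 7 (-1.30, adjusted p = 3.69e-10) and day 21 (-1.50, adjusted p = 9.04e-13), days on which no member was called, and on day 42 by a value of -0.45 (adjusted p = 0.0172). The days given for this gene were chosen after its values were seen. On day 28 the sarcomere list was split, with 6 genes higher and 3 lower, and all 11 tested fast skeletal muscle genes were higher. In that comparison the skeletal muscle sum was 5.9 to 3350 CPM in bleomycin lungs and 5.59 to 24 CPM in PBS lungs. The sum of the sarcomere list was 381 to 9460 CPM (median 475) in bleomycin lungs and 627 to 1230 CPM (median 992) in PBS lungs. Bleomycin replicate 2 had the highest value of both sums.

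Whether the bleomycin effect on a gene differed between days was tested directly. An F test over the 5 days called 2 of the members, Sln (adjusted p = 0.0265) and Mybpc3 (adjusted p = 0.0341), against 26.5% of all genes. Sln passed on day 42 alone, and Mybpc3 on days 28 and 42. Neither held without the unusual libraries (adjusted p = 0.102 and 0.0509 by edgeR), Sln lost its call without bleomycin replicate 2 of day 28 (adjusted p = 0.055) and Mybpc3 lost it without bleomycin replicate 1 of day 7 (adjusted p = 0.0503). Tnnt2 (adjusted p = 0.0543) passed without any one of 14 of the 76 libraries in the test, and Myl4 without bleomycin replicate 6 of day 42. The effect on day 42 minus that on day 14 was called for 0 members, against 15.3% of all genes. At an unadjusted p under 0.05 edgeR had 3 members, and DESeq2 and limma called 0. The most negative values were -1.51 for Nppa (adjusted p = 0.269), -0.90 for Tnnt2 (adjusted p = 0.0692), and -0.89 for both Sln (adjusted p = 0.0933) and Mybpc3 (adjusted p = 0.0853). Without the high-ribosomal libraries 5042 of all genes were called in that test. Among them were Tnnt2, Sln and Mybpc3, at -0.92, -0.90 and -0.90 (adjusted p = 0.00175, 0.0276 and 0.0101 by edgeR). These 3 members also passed without bleomycin replicate 6 of day 42, and Tnnt2 and Mybpc3 without PBS replicate 1 of day 14. Lungs of days 7 and 14 had no oral dosing and the later ones had vehicle, so day and vehicle cannot be told apart in these tests. In PBS lungs no member was called across the days, against 21.7% of all genes, and Myl7 came nearest (adjusted p = 0.0599). It was the 1 member of edgeR at an unadjusted p under 0.05, DESeq2 and limma called 1 member each, and Myl7 passed without PBS replicate 1 of day 14, replicate 1, 4 or 6 of day 28 or replicate 7 of day 7.

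The SB525334 comparisons addressed the response to the ALK5 inhibitor within bleomycin-treated animals. On day 21 no member passed, as against 0.377% of genes tested, or 59 in all. Tnni3, Tnnt2 and Myl4 were the 3 members with an unadjusted p under 0.05 in edgeR, and DESeq2 and limma called 0 after adjustment. The values were positive in 9 of 10 members, with a median of 0.34 beside 0.01 for all genes, and plate 1 and plate 2 gave positive differences for all 10. Tnnt2 had 34.0, 49.1 and 75.3 CPM in SB525334 lungs and 19.1, 36.3 and 44.9 CPM in vehicle lungs, at 0.51 ± 0.25 (adjusted p = 0.677). Of the 9 SB525334 lungs 6 lay above the highest vehicle lung. Tnni3 was at 0.45 ± 0.19 (adjusted p = 0.501) and Myl4 at 0.45 ± 0.19 (adjusted p = 0.499).

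On day 28, 3 of 10 members rose with SB525334, against 2.63% of genes tested as higher and 8.31% in either direction. They were the atrial light chains Myl7 and Myl4 and the troponin Tnni3. Myl4 had 53.3, 63.2 and 94.7 CPM in SB525334 lungs and 11.5, 32.2 and 42.7 CPM in vehicle lungs, a change of 1.11 ± 0.20 (adjusted p = 0.000127). Its groups did not overlap, as was so in the higher direction for 0.0447% of all genes. Myl7 had 63.4, 98.5 and 197 CPM in SB525334 lungs and 16.1, 51.3 and 94.2 CPM in vehicle lungs, a change of 1.19 ± 0.25 (adjusted p = 0.00107). Tnni3 had 19.8, 29.9 and 45.7 CPM in SB525334 lungs and 6.06, 14.5 and 21.8 CPM in vehicle lungs, a change of 1.10 ± 0.20 (adjusted p = 0.000192). All but 1 of the 8 SB525334 lungs lay above the highest vehicle lung in Tnni3, and 5 of 8 did in Myl7.

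The other members were positive without passing, between 0.23 ± 0.23 for Ryr2 and 0.56 ± 0.27 for Tnnt2, and the median of the 10 was 0.48, beside -0.03 for all genes. The ribosomal protein share moved with this comparison. It was 2.28% to 13.5% (median 7.31%) in SB525334 lungs and 2.16% to 10.3% (median 3.09%) in vehicle lungs. Its part in the result was looked at only through the refits given next, and the cause of the changes between fits was not tested. Without the high-ribosomal libraries, which left 2 SB525334 and 3 vehicle lungs, 0 members were called, with Myl7 at 0.89 (adjusted p = 0.234 by edgeR), Tnni3 at 1.10 (adjusted p = 0.0886 by edgeR) and Myl4 at 0.88 (adjusted p = 0.179 by edgeR). The size of the Tnni3 value was the same. In a fit of the 2 groups alone 0 members were called as well. At an unadjusted p under 0.05 edgeR had 7 and 3 members in these fits, and on all libraries DESeq2 and limma called 3 each. With the ribosomal share as a term 6 members were called. In plates 1 and 2 the mean log2 differences were 1.32 and 0.76 for Myl4, 1.46 and 0.78 for Myl7 and 1.19 and 1.04 for Tnni3.

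Vehicle replicate 2, the library with skeletal muscle genes, also had the highest Actc1, Nppa and Sln of its group, at 119, 14.6 and 39.1 CPM. Without it 5 members were called, with Actc1 (0.65, adjusted p = 0.016 by edgeR) and Sln (0.83, adjusted p = 0.0496 by edgeR) added to the 3. Of the 16 other sarcomere genes 3 rose with SB525334 on day 28 and 7 fell, with a median of -0.58. Myoz2 (1.37 ± 0.24, adjusted p = 0.000116), Mybphl (1.17 ± 0.23, adjusted p = 0.00044) and Tnnc1 (0.97 ± 0.22, adjusted p = 0.00241) rose, and titin (Ttn, -2.08 ± 0.46, adjusted p = 0.00225) fell. The summed level of the sarcomere list was 445, 591 and 1580 CPM in SB525334 lungs (lowest, median and highest). In vehicle lungs it was 381, 475 and 9460 CPM, with the highest value in replicate 2. Of the fast skeletal muscle genes 9 of 11 fell, with a summed level of 5.69 to 27.6 CPM in SB525334 lungs and 5.9 to 3350 CPM in vehicle lungs. The SB525334 effect on day 28 minus that on day 21 was called for 0 members, against 0.166% of all genes, and was 0.91 for Myl7 (adjusted p = 0.278), 0.66 for Myl4 (adjusted p = 0.333) and 0.65 for Tnni3 (adjusted p = 0.359). These were the 3 members with an unadjusted p under 0.05 in edgeR, and DESeq2 and limma called 0. A difference between the days was therefore not shown, nor was its absence.

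The members varied together from lung to lung. Over the 81 lungs outside the high-ribosomal libraries, the 45 pairs of members had Pearson correlations of log2 CPM of 0.48 (Nppa and Ryr2) to 0.95 (Tnni3 and Myl4), with a median of 0.73. Over all 93 lungs they ran from -0.18 (Myh6 and Sln) to 0.93 (Myh6 and Ryr2), with a median of 0.49. These are descriptions, since the points share libraries, depth and treatment groups. The genes most like the members' mean log2 CPM over 93 lungs were Ckmt2 (r = 0.86), Mybphl (0.82), Pln (0.75), Fndc5 (0.74), Mb (0.72), Mylk3 (0.70), Tnnc1 and Srl (0.69 each), Adprhl1 (0.68) and Csrp3 (0.67). Over the 81 lungs these 10 genes had correlations of 0.67 (Adprhl1) to 0.89 (Mybphl).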

How the data were processed

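RNA-seq of 93 lung libraries (12 groups) was analysed, with the 93 skin libraries used for levels only. The deposited table holds expected counts per gene, which the authors estimated with RSEM on GRCm38, per the submitters' processing notes. Of its values 83.7% were whole, and all were rounded. The authors also deposited a log2 CPM table, plate-corrected per its name, for which the submitters' processing notes name edgeR and which served as an alternative. GENCODE M21 named 21929 of 22095 IDs. The aligner's settings and whether counting used strand are not given in the sources used here.

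edgeR 4.0.16 in R 4.3.3 was fitted to all lung groups with plate, read from the library names in the labels, as a term (TMM, filterByExpr, robust quasi-likelihood), leaving 15647 genes, and p-values were adjusted by Benjamini-Hochberg with a threshold of 0.05. Standard errors were approximated from the log2 fold change and its F statistic. Levels are TMM-scaled CPM. Libraries totalled 4.79 to 38.34 M counts; the members' median counts ran from 30 for Nppa to 3466 for Myh6, and day 28 was the shallowest. The fit was checked on simulated data. Alternatives used RLE factors, no filter, DESeq2 1.42.0, limma 3.58.1, no plate term, a replicate block, left-out libraries and the compared groups alone. Unusual libraries had over 15% of counts in 10 genes, or a skeletal muscle, skin or liver sum over 10 times the median and over 100 CPM. Members and lists were chosen with earlier results of these data known. All members are described, with the 10 genes most correlated with them and up to 4 genes of smallest p per cardiac list. The same-numbered samples of compared groups correlated at -0.43 to 0.58 in their residuals, so the numbers were not taken as pairs. Results for some genes of these lists are not reported here.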

Additional observations from a re-analysis of the deposited data

Results flagged for a closer look

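In 22 of the 120 sets of values of 1 gene in 1 group, the highest or lowest library stood apart from the rest by Dixon's criterion. For independent, normally distributed values chance alone would meet it in about 1 in 20 sets. These values were CPM without a log scale and the members varied together, so the 22 cannot be measured against that rate. The flags fell on a few libraries. Bleomycin replicate 6 of day 42 was the high library of its group for Myl7 (42.2 CPM), Tnni3 (19.6 CPM), Sln (6.01 CPM), Mybpc3 (6.85 CPM) and Myl4 (36.2 CPM). PBS replicate 3 of day 7 was high for Myh6 (331 CPM), Actc1 (97.7 CPM), Nppa (7.23 CPM) and Ryr2 (105 CPM). SB525334 replicate 2 of day 21 was high for Myh6 (429 CPM), Nppa (5.42 CPM) and Ryr2 (105 CPM).

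Bleomycin replicate 5 of day 21 was low for Myh6 (90.4 CPM), Tnni3 (10.7 CPM), Tnnt2 (19.1 CPM) and Actc1 (31.9 CPM). Bleomycin replicate 2 of day 28, with its skeletal muscle genes, was high for Actc1 (119 CPM), Nppa (14.6 CPM) and Sln (39.1 CPM). Single flags were Tnnt2 in bleomycin replicate 6 of day 14 (53.5 CPM) and Nppa in SB525334 replicate 1 of day 28 (10.7 CPM) and in PBS replicate 1 of day 14 (5.76 CPM). The bleomycin effect differed between the days for Sln (adjusted p = 0.0265) and Mybpc3 (adjusted p = 0.0341) by the F test of edgeR.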

How the results depend on the processing

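The day 42 count stayed at 9 or 10 of 10 members in every alternative run and with each library left out. Elsewhere the cause of a change was not tested. Without the high-ribosomal libraries the members called were 1 on day 7, 2 on day 21, 1 on day 28, 0 for SB525334 on day 28 (7 at an unadjusted p under 0.05 by edgeR), 4 between days and 3 for day 42 minus day 14, and Actc1 on day 28 reversed to 0.03. Among all genes 7798, 804, 4966, 226, 82, 7771, 5042, 78 and 5122 were then called on day 7, day 28 and day 42, for SB525334 on days 21 and 28, between days, for day 42 minus day 14, for the SB525334 difference and across PBS days. Without these and the unusual libraries the members were 1 on day 7, 3 on day 21, 0 on day 28, 0 for SB525334 on day 28, 4 between days and 3 for day 42 minus day 14, and the genes 8629 on day 21, 28 on day 28, 4585 on day 42, 648 and 26 for SB525334, 8100 between days, 5705 for day 42 minus day 14, 81 for the SB525334 difference and 5933 across PBS days. Without the unusual libraries alone 5 members were called for SB525334 on day 28 and 1 between days, with 154 and 735 genes for SB525334 on days 21 and 28 and 0 for their difference. In the compared groups alone, which could not be fitted for tests over several days, the members were 1, 3, 0 and 0 on days 7, 21 and 28 and for SB525334 on day 28, and the genes 8695, 112, 890 and 0 on days 21 and 28 and for SB525334 on days 21 and 28. With the ribosomal share as a term, chosen after seeing the data as was leaving out both kinds of library, the members were 1 on day 7, 1 on day 21, 4 on day 28, 6 for SB525334 on day 28, 3 between days and 2 for day 42 minus day 14, with 122 genes for SB525334 on day 21 and 0 for the difference. DESeq2, limma and the fit with no plate term each called 1 member across PBS days. On day 14 limma and the fit with no filter each called 4 members, and DESeq2 called 121 genes for SB525334 on day 21 and 51 for the SB525334 difference, for which limma called 0. The replicate block called 0, 5, 0, 6 and 9 members on the 5 days and 0 genes for the SB525334 difference, against 26 without it; it ended the day 14 call of Myl7 and no other member's call.

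With single libraries left out, the dispersion trend being held, the members called ranged from 0 to 1 on day 7, 3 to 6 on day 14, 0 to 1 on day 21, 2 to 7 on day 28, 3 to 5 for SB525334 on day 28, 1 to 4 between days, 0 to 3 for day 42 minus day 14 and 0 to 1 across PBS days. The genes ranged from 3965 to 7521 on day 28, 38 to 85 and 492 to 4232 for SB525334 on days 21 and 28, and 0 to 323 for their difference. Nppa, Mybpc3 and Sln had the fewest counts of the members, with medians of 30, 119 and 122 per library. This may limit what could be detected for these genes, which was not tested.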
